A study of Mus musculus with 56 samples.

Results

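The MYC and MAX network is a set of basic helix-loop-helix leucine zipper proteins that bind DNA as pairs. The 10 genes described here, Myc, Mycn, Mycl, Max, Mxd1, Mxi1, Mxd4, Mnt, Mlx and Mga, were chosen by name and found by their Entrez identifiers in a table of 24424 genes. All 10 were present, and all 10 were among the 12133 genes tested, those averaging 4 or more across libraries. The table held RNA sequencing of bone marrow progenitors from C57BL/6 mice, in 15 libraries and 4 groups. Wild-type (WT) mice gave 4 libraries of multipotent progenitors (MPP) and 5 of granulocyte-macrophage progenitors (GMP). Mice labelled T2F3, of genotype Tet2-/-Flt3ITD, in which the 5-methylcytosine oxidase TET2 is lost and the receptor FLT3 bears a duplicated stretch, gave 3 libraries of each population. The titles of all 15 libraries, WT included, carry the word leukemia. MPP were sorted as lin- Sca+ cKit+ CD48+ CD150- and GMP as lin- Sca- cKit+ CD34+ CD16/32+. The animals' ages, how the alleles were made and the treatment the labels refer to are not given in the sources used here. No label says that libraries of a group came from separate animals, so every p here rests on library-to-library spread, which may be technical.

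MYC, MYCN and MYCL pair with MAX and activate genes that carry the E-box CACGTG, among them genes of ribosome production, nucleotide synthesis and the cell cycle. MXD1, MXI1, MXD4 and MNT compete for MAX and recruit the SIN3-HDAC corepressor to the same sites, MGA joins MAX in a Polycomb complex that keeps germline genes silent, and MLX pairs with the glucose-responsive proteins MLXIP and MLXIPL. In bone marrow Myc and Mycn act in stem and progenitor cells, where they control growth and exit from the stem cell state, and Mycl is known for its expression in dendritic cells.

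Promoter windows from RefSeq ran from 250 bases before to 50 bases after each transcription start on GRCm38.p6. They were found for 9 of the members and gave 11 windows. Myc was the member without a window, and the promoter results do not cover it. The E-box CACGTG, the site that MAX pairs bind, was present on either strand in 4 of these 9 genes, Mxd4, Mnt, Mlx and Max. That is 4 of the 11 windows, while 7.15% of 32851 promoter windows of the same length hold it. The 11 windows held 55.0 to 76.7% G and C, beside a median of 52.7% over all windows. The part of base composition in this and the other motif shares was not tested. In Max it began 3 bases before the start. The stretches around the other 3 matches are printed because these 3 genes carry the site of the network that they belong to, with CACGTG in capitals.
Mxd4, chr5:34187897-34187956 (- strand): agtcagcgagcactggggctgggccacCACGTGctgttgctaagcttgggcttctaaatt
Mnt, chr11:74830774-74830833 (+ strand): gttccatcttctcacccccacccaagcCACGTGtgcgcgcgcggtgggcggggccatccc
Mlx, chr11:101087223-101087282 (+ strand): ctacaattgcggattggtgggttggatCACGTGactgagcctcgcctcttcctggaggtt

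The match began 219 bases before the start in Mxd4, 123 in Mnt and 40 in Mlx. Mycl and Mycn, the members with the largest genotype differences below, had no CACGTG in their windows. The 250 bases before their starts are printed with the looser core CANNTG, which includes CACGTG, in capitals. That core was found in 8 of the 9 genes and in 72.3% of all windows.
Mycl, chr4:122995681-122995930 (+ strand): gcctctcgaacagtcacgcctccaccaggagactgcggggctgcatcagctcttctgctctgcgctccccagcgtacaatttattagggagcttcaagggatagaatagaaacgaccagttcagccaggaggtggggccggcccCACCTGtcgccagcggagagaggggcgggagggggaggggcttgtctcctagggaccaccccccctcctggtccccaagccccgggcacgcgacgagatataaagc
Mycn, chr12:12941837-12942086 (- strand): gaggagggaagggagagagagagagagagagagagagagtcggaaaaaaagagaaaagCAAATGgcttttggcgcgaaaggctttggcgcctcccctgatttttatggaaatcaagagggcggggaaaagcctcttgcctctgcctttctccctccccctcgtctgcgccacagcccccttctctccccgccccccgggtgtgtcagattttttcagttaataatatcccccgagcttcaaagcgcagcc

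The core in Mycl began 106 bases before the start and the one shown in Mycn 192 bases before it. The palindrome TTCNNNGAA is the form bound by STAT factors, which act downstream of FLT3-ITD. It was in none of the 11 windows, which leave out Myc, and in 8.3% of all windows. These coordinates belong to GRCm38.p6, while the submitters' processing notes name mm9.

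Expression was given as regularized log2 values, a scale on which a difference of 1 is a doubling and differences of weakly expressed genes are shrunk. Levels are compared between groups for 1 gene at a time and not between genes, since the values are not corrected for gene length. Depth is unknown, as the table holds no counts. A gene was called when its adjusted p (limma, Benjamini-Hochberg over the 12133 genes) was under 0.05. Tet2 itself differed little between genotypes, by -0.04 in MPP (limma adjusted p = 0.783) and 0.06 in GMP (limma adjusted p = 0.762), so its level alone tells nothing of a partial deletion. Flt3 was 1.28 higher in T2F3 than in WT GMP (limma adjusted p = 8.235e-07) and differed by -0.06 in MPP (limma adjusted p = 0.685), and the difference between these effects was 1.34 (limma adjusted p = 4.66e-04). WT GMP library 1 and T2F3 GMP library 2 stood apart: their median deviation from the group mean over 73 ribosomal protein genes was 0.85 and 0.53, against -0.41 to 0.05 in the other 13 libraries. Member calls that change when both libraries are left out, and some of the list counts that do, are given that way too. The genes of the sorting gate themselves differed between genotypes: of 6 tested, 3 rose and 1 fell in T2F3 MPP, from -0.92 for Kit to 1.53 for Cd48, and 2 rose in T2F3 GMP. Slamf1 (CD150) had a mean under 4 in every group, and Fcgr3 (CD16) averaged 8.89 in WT MPP, 8.86 in T2F3 MPP, 11.01 in WT GMP and 10.74 in T2F3 GMP. In bulk RNA from sorted cells, fewer cells of a type and less RNA per cell cannot be told apart.

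The 3 MYC genes differed between genotypes in different directions. Mycl was over 4-fold higher in T2F3 than in WT cells in both populations. Mycn was 3.99-fold higher in T2F3 MPP and did not pass in GMP, and a test of the difference between these effects passed. Myc, the broadly acting gene of the family, was 1.68-fold lower in T2F3 MPP and 1.42-fold lower in T2F3 GMP. In MPP, 4 of the 10 members passed the test, Mycn and Mycl upward and Myc and Mnt downward, while 40.3% of all tested genes did (20.7% higher and 19.6% lower), so the share of members is that of the background. In GMP, 2 members passed, Mycl upward and Myc downward, beside 15.3% of all genes (9.25% higher and 6.04% lower). The members' median difference was -0.26 in MPP and -0.08 in GMP, beside -0.02 over all tested genes in each. In MPP 51.26% of the calls were upward; centring libraries on their medians made this 40.21%, and quantile normalization gave 42.27%. Myc, Mycn, Mycl and Mnt kept their directions under both.

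Mycl stood at 5.87, 7.08, 6.65 and 6.37 in the WT MPP libraries (mean 6.49 ± 0.51, SD, n = 4) and at 8.12, 8.80 and 8.89 in the T2F3 MPP libraries (8.60 ± 0.42, n = 3). In GMP it stood at 5.69, 5.64, 5.96, 5.50 and 5.35 in WT (5.63 ± 0.23, n = 5) and at 7.63, 7.86 and 8.32 in T2F3 (7.94 ± 0.35, n = 3). All T2F3 libraries were above all WT libraries in each population, with gaps of 1.04 between the nearest MPP libraries and 1.67 between the nearest GMP libraries. The T2F3 minus WT difference was 2.11 ± 0.25 (SE) in MPP, 4.32-fold (limma adjusted p = 1.052e-05). In GMP it was 2.31 ± 0.24, 4.96-fold (limma adjusted p = 3.69e-06). The 2 differences themselves differed by 0.20 (95% interval -0.54 to 0.93, limma adjusted p = 0.777), which neither shows that they are alike nor that they differ.

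Markers of dendritic cells moved with Mycl. Of 7 such markers tested, 6 rose in T2F3 MPP and 6 in T2F3 GMP, with list medians of 2.48 and 2.78. The antigen-presentation gene Cd74 rose by 2.48 in MPP and 3.01 in GMP, and Xcr1, Clec9a and Batf3, which mark conventional dendritic cells, rose by 2.74, 2.44 and 2.39 in MPP and by 2.78, 2.72 and 2.30 in GMP. Siglech, the marker of plasmacytoid dendritic cells, was the member of that list that did not pass, at -0.51 in MPP and -0.04 in GMP. The log2 of the summed linear level of the 7 markers ran from 12.19 to 13.12 over the WT MPP libraries and from 15.02 to 15.89 over the T2F3 MPP libraries. In GMP it ran from 11.55 to 11.86 in WT and from 14.61 to 14.81 in T2F3. None of the 7 was at 0, and the lowest group mean was 3.71, that of Siglech in T2F3 GMP. The part of such cells or programmes in the Mycl difference was not tested.

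Mycn stood at 7.13, 7.55, 7.00 and 7.34 in WT MPP (7.26 ± 0.24, n = 4) and at 9.36, 9.15 and 9.24 in T2F3 MPP (9.25 ± 0.11, n = 3). Its GMP values were 5.27, 5.46, 4.92, 4.93 and 5.14 in WT (5.15 ± 0.23, n = 5) and 4.64, 4.78 and 5.03 in T2F3 (4.82 ± 0.19, n = 3). The MPP genotypes were separated by a gap of 1.6, whereas the GMP genotypes overlapped. The MPP difference was 2.00 ± 0.16, 3.99-fold (limma adjusted p = 1.213e-07). In GMP the difference was -0.33 ± 0.15 (limma adjusted p = 0.145), at levels near the low end of the tested genes. The genotype effect in GMP was lower than that in MPP by 2.33 ± 0.21 on the log2 scale (limma adjusted p = 4.432e-05). Mycn was the single member whose 2 effects differed, beside 2.26% of all tested genes (1.38% higher in GMP and 0.882% lower).

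Myc stood at 11.71, 11.61, 11.73 and 12.14 in WT MPP (11.80 ± 0.24, n = 4) and at 10.80, 11.09 and 11.26 in T2F3 MPP (11.05 ± 0.24, n = 3). In GMP it stood at 11.22, 11.61, 11.44, 11.54 and 11.87 in WT (11.54 ± 0.23, n = 5) and at 10.97, 10.85 and 11.26 in T2F3 (11.03 ± 0.21, n = 3). The MPP genotypes did not overlap, with a gap of 0.35, while in GMP the highest T2F3 library reached just above the lowest WT library. The difference in MPP was -0.75 ± 0.16, 1.68-fold lower in T2F3 (limma adjusted p = 0.00242). In GMP it was -0.51 ± 0.15, 1.42-fold lower (limma adjusted p = 0.0366). The GMP call was lost without WT GMP library 2 (limma adjusted p = 0.073), 4 (0.0617) or 5 (0.0874) and without T2F3 GMP library 1 (0.101) or 2 (0.162), and over all alternatives its adjusted p ran from 0.00259 to 0.162 with the sign kept in each. The GMP minus MPP difference of the 2 effects of Myc was 0.24 (95% interval -0.23 to 0.72, limma adjusted p = 0.564).

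Markers of some other cell types moved between the same groups as Myc. In T2F3 MPP, 5 of 6 stem and early progenitor markers fell, with a median of -1.15, among them Hlf (-1.54) and Meis1 (-0.79), while Procr was at 0.42 and did not pass. The log2 of their summed linear level ran from 11.87 to 12.12 in WT MPP and from 10.45 to 11.34 in T2F3 MPP. In GMP 2 of the 6 fell, with sums of 9.30 to 9.53 in WT and 9.10 to 9.21 in T2F3; without WT GMP library 1 and T2F3 GMP library 2 this was 1. Of 5 basophil and mast cell markers, 4 fell in MPP and 5 in GMP, while the remaining one was at 0.61 in MPP and did not pass. All 3 tested B lymphoid markers fell in each. Of the 5 B lymphoid markers, 4 had means under 4 in T2F3 MPP and in T2F3 GMP, beside 1 in WT MPP and 2 in WT GMP. These falls thus reach levels at the low end of the tested genes. Of 5 monocyte markers, 4 rose in MPP and 3 in GMP, with sums of 12.82 to 13.20 in WT MPP, 13.86 to 14.35 in T2F3 MPP, 14.59 to 14.99 in WT GMP and 15.13 to 15.96 in T2F3 GMP. Of 5 primary granule markers, 1 rose in MPP and none passed in GMP (limma; 1 lower at an unadjusted p under 0.05), with medians of -0.03 and -0.21. None of 6 late neutrophil markers passed in either population (limma). Their GMP median was 1.02, with 5 higher at an unadjusted p under 0.05. Of 3 tested megakaryocyte markers, 1 fell in MPP and 2 in GMP. The part of such marker differences in the differences of Myc and of the other members was not tested.

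**Figure D1:**
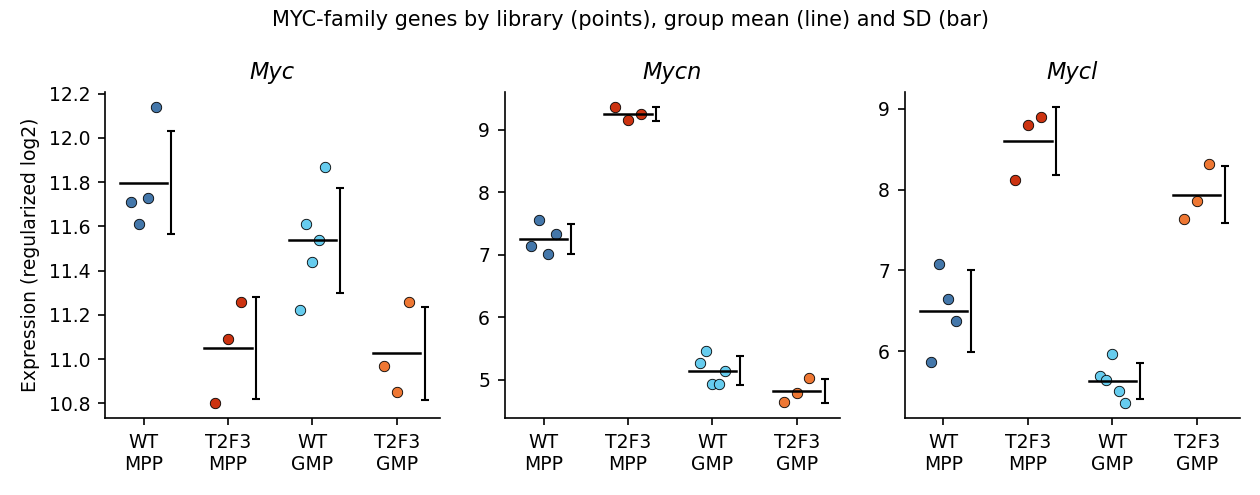
Regularized log2 expression (vertical axis, a separate range for each gene) of Myc, Mycn and Mycl in the 15 libraries, by group (horizontal axis); points are libraries, lines are group means and bars are SD. Mycl is higher in T2F3 in both populations, Mycn is at 9.15 to 9.36 in T2F3 MPP and under 5.5 in all GMP libraries, and Myc is lower in T2F3 with overlap in GMP.

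Max, the partner that all MYC, MXD, MNT and MGA proteins share, stayed within a narrow range. Its libraries ran from 9.68 to 10.02 in WT MPP, 9.73 to 9.87 in T2F3 MPP, 9.73 to 10.10 in WT GMP and 9.80 to 9.96 in T2F3 GMP. The genotype difference was -0.04 in MPP (95% interval -0.25 to 0.17, limma adjusted p = 0.778) and -0.07 in GMP (95% interval -0.28 to 0.13, limma adjusted p = 0.644). All 4 groups overlapped, and the intervals leave room for a fall of up to 0.28 or a rise of up to 0.17.

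Of the members that encode MAX-bound repressors, Mnt passed between genotypes, in MPP. MNT is the widely expressed antagonist of MYC. Its gene stood at 9.52, 9.36, 9.21 and 9.55 in WT MPP (9.41 ± 0.16, n = 4) and at 9.01, 8.94 and 9.07 in T2F3 MPP (9.01 ± 0.06, n = 3), with no overlap and a gap of 0.14. The difference was -0.40 ± 0.12, 1.32-fold lower in T2F3 (limma adjusted p = 0.013), and the call was lost without T2F3 MPP library 2 (-0.37, limma adjusted p = 0.0575; 7.35e-04 to 0.0601 over all alternatives). In GMP, Mnt overlapped between genotypes and differed by -0.09 (limma adjusted p = 0.627), and the 2 effects differed by 0.31 (limma adjusted p = 0.292).

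Mxd1, Mxi1 and Mxd4 encode repressors whose levels are known to rise as cells stop dividing and differentiate. None of the 3 passed between genotypes. Mxd1 was at -0.32 in MPP (limma adjusted p = 0.125) and 0.31 in GMP (limma adjusted p = 0.188), and these opposite values differed by 0.63 ± 0.22 (limma adjusted p = 0.147). Without WT GMP library 4, in which Mxd1 was highest of its group at 9.30, the GMP difference was 0.45 (limma adjusted p = 0.0193), the difference of the effects 0.76 (limma adjusted p = 0.0322) and that in MPP passed at an unmoved -0.32 (limma adjusted p = 0.0458); over all alternatives these adjusted p-values ran from 0.0193 to 0.384, 0.0322 to 0.341 and 0.0458 to 0.322.

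Mxi1 was at -0.25 in MPP (limma adjusted p = 0.0871) and at -0.29 in GMP (limma adjusted p = 0.0781), and neither passed. These values differed by -0.04 (95% interval -0.38 to 0.29, limma adjusted p = 0.893), an interval that shows neither likeness nor difference. Its GMP genotypes did not overlap: WT libraries ran from 9.25 to 9.65 and T2F3 libraries from 9.0 to 9.16. Without WT GMP library 1 the GMP value was -0.31 and passed (limma adjusted p = 0.0456, 0.0298 to 0.227 over all alternatives). Mxd4 differed by -0.27 in MPP (limma adjusted p = 0.114) and -0.07 in GMP (limma adjusted p = 0.755), with overlap in each.

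Mlx and Mga, which head the 2 side branches of the network, did not pass between genotypes either. Mlx stood at 8.35, 8.52, 8.68 and 8.56 in WT MPP and at 8.83, 8.89 and 8.87 in T2F3 MPP. These values do not overlap, and their difference of 0.34 ± 0.15 did not pass (limma adjusted p = 0.0885). It passed without WT GMP library 1 (limma adjusted p = 0.0241, 0.00278 to 0.201 over all alternatives), a library that is not in the contrast and enters through the shared estimate of the spread. Mga differed by -0.28 in MPP (limma adjusted p = 0.0716) and -0.15 in GMP (limma adjusted p = 0.41), and its MPP genotypes were separated by 0.006. Without WT GMP library 1 and T2F3 GMP library 2 together, Mlx, Mga and Mxd4 all passed in MPP, at limma adjusted p = 0.011, 0.0356 and 0.0441, which made 7 members. In that setting 6695 of the 12133 tested genes were called in MPP, against 4889 with all libraries. The 7 members are to be read against that larger share.

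**Figure D2:**
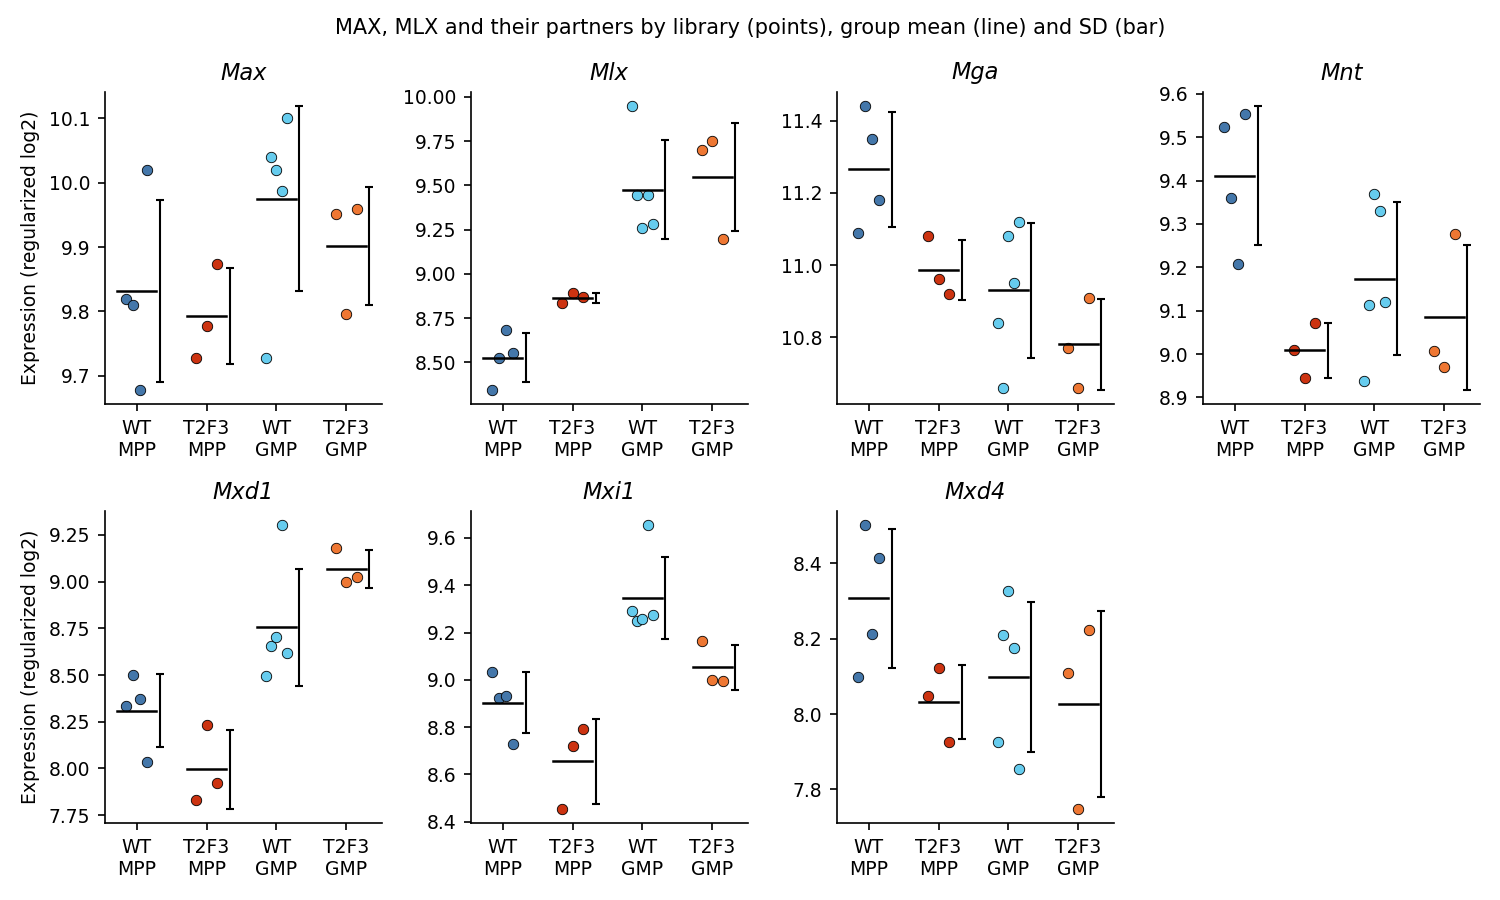
Regularized log2 expression (vertical axis, a separate range for each gene) of the other 7 members in the 15 libraries, by group (horizontal axis); points are libraries, lines are group means and bars are SD. Mlx and Mxd1 are higher in GMP than in MPP of the same genotype, Mnt is lower in T2F3 than in WT MPP, and the highest WT GMP library lies apart from its group in Mlx, Mxd1 and Mxi1.

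**Figure D3:**
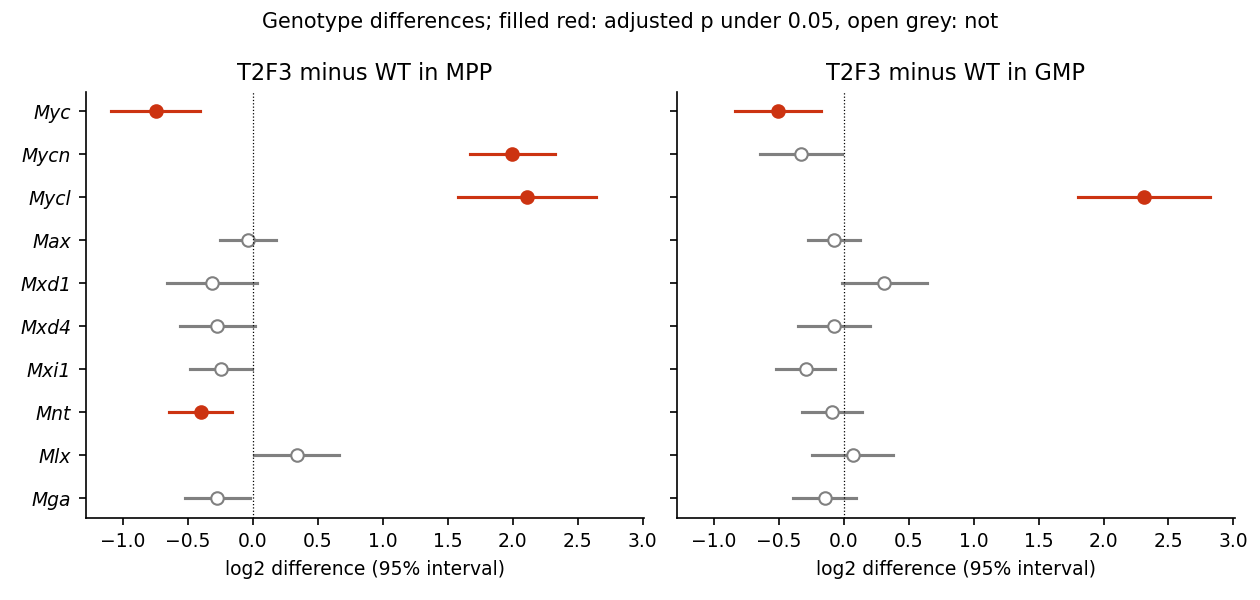
T2F3 minus WT difference of each member (horizontal axis, log2, with the 95% interval as a line) in MPP and in GMP; filled red points passed at an adjusted p under 0.05 and open grey points did not. Mycl lies above 2 in both panels, and Mycn lies at 2.00 in MPP and at -0.33 in GMP.

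The step from MPP to GMP was compared within each genotype. In WT, 6 of the 10 members passed, with Mxd1, Mxi1 and Mlx higher in GMP and Mycn, Mycl and Mga lower, beside 48.6% of all genes (25.4% higher and 23.2% lower). In T2F3, 4 passed, with Mxd1, Mxi1 and Mlx higher and Mycn lower, beside 22.2% of all genes (10.5% higher and 11.7% lower). These shares are to be read against those backgrounds. Median centring moved the share of called genes that were higher in the WT step from 52.23% to 42.19%.

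Mycn had the lowest GMP values relative to MPP of any member in both genotypes. The step was -2.11 ± 0.14 in WT, 4.31-fold lower in GMP (limma adjusted p = 5.303e-09). In T2F3 it was -4.43 ± 0.17, 21.6-fold lower (limma adjusted p = 6.865e-11), and the lowest MPP library was 4.12 above the highest GMP library. The test of the difference between these steps is the one given for the genotype effects of Mycn, since both contrasts are the same numbers. The step of Mycl was -0.86 ± 0.22 in WT, lower in GMP with overlap (limma adjusted p = 0.00402), and -0.67 in T2F3, which did not pass (limma adjusted p = 0.0908). The T2F3 step of Mycl passed without T2F3 MPP library 1 (-0.91, limma adjusted p = 0.0321) or T2F3 GMP library 3 (-0.86, limma adjusted p = 0.0449), and its adjusted p ran from 0.00755 to 0.294 over all alternatives.

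Mlx rose from MPP to GMP by 0.95 ± 0.14 in WT, 1.93-fold (limma adjusted p = 2.595e-05). In T2F3 it rose by 0.68 ± 0.16, 1.61-fold (limma adjusted p = 0.00582). Its values in WT GMP were 9.95, 9.45, 9.26, 9.45 and 9.28, and the highest was library 1. Without WT GMP library 1 and T2F3 GMP library 2 the steps were 0.83 and 0.58 and passed (limma adjusted p = 9.579e-07 and 0.00147).

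Mxd1 rose by 0.44 ± 0.14 in WT (limma adjusted p = 0.0166) and by 1.07 ± 0.17 in T2F3, 2.10-fold (limma adjusted p = 2.061e-04). In T2F3 it stood at 7.83, 8.23 and 7.92 in MPP and at 9.18, 9.0 and 9.03 in GMP, with a gap of 0.76, while the WT populations met at 8.50. The WT call was lost without WT MPP library 5 (0.35, limma adjusted p = 0.0665, 0.00324 to 0.0665 over all alternatives). Mxi1 rose by 0.44 ± 0.10 in WT (limma adjusted p = 0.00159) and by 0.40 ± 0.12 in T2F3 (limma adjusted p = 0.0248), with no overlap in either. Its T2F3 call was lost without T2F3 MPP library 1 (0.30, limma adjusted p = 0.128) or T2F3 GMP library 1 (0.34, limma adjusted p = 0.106), in a range of 0.00854 to 0.128.

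Mga fell from WT MPP to WT GMP (-0.33 ± 0.10, limma adjusted p = 0.0146), and the call was lost without WT MPP library 3 (-0.27, limma adjusted p = 0.0602, 4.645e-04 to 0.0602 over all alternatives). Myc differed by -0.26 in the WT step (95% interval -0.56 to 0.04, limma adjusted p = 0.138) and by -0.02 in the T2F3 step (95% interval -0.39 to 0.35, limma adjusted p = 0.959). Under quantile normalization the WT step of Myc was -0.52 and passed (limma adjusted p = 0.0041, 0.0041 to 0.417 over all alternatives). Max rose by 0.21 in the WT step when WT GMP library 1 was left out (limma adjusted p = 0.0356), in place of 0.15 (limma adjusted p = 0.183). Without that library and T2F3 GMP library 2 Max passed too (limma adjusted p = 0.021), which made 7 members, beside 7037 of all 12133 tested genes. Over all alternatives the adjusted p of Max ran from 0.00625 to 0.989. Mnt, at -0.24 in the WT step (limma adjusted p = 0.0631), passed without WT MPP library 4 (limma adjusted p = 0.0297) or WT GMP library 3 (0.0326) or 4 (0.0453), in a range of 0.0116 to 0.2.

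By order of level, Mycn ran T2F3 MPP, WT MPP, WT GMP, T2F3 GMP, and only the last 2 overlapped. Mycl ran T2F3 MPP, T2F3 GMP, WT MPP, WT GMP, where the first pair and the last pair overlapped within themselves. The Myc order was WT MPP, WT GMP, T2F3 MPP, T2F3 GMP, and each neighbouring pair overlapped. These orders compare groups of 1 gene and not genes.

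Other bHLHZ genes of the network were taken from a list of 3. Mxd3, a further MAX-bound repressor that is known for expression in S phase, rose in T2F3 by 0.75 ± 0.21 in MPP (limma adjusted p = 0.0108) and by 0.79 ± 0.20 in GMP (limma adjusted p = 0.0126). Those calls were lost without T2F3 MPP library 2 and without T2F3 GMP library 2, with ranges of 0.56 to 0.89 and 0.59 to 0.95 over all alternatives. Mlxip, the partner of MLX, fell in T2F3 MPP (-0.48 ± 0.11, limma adjusted p = 0.00299) and was at -0.10 in GMP. Mlxipl had a mean of 2.04 and was not tested. Among 6 genes that MLX and its partners are known to induce in response to glucose, 2 fell in MPP and 1 in GMP, and none rose. Pklr, which encodes liver-type pyruvate kinase and is also an erythroid enzyme, was the one that fell in both, at -2.76 ± 0.20 (limma adjusted p = 8.235e-08) and at -1.35 ± 0.19 (limma adjusted p = 1.144e-04). Of 6 erythroid markers, all 6 fell in T2F3 MPP and in T2F3 GMP, with medians of -2.32 and -1.48 and summed log2 levels of 7.27 to 7.49 against 9.85 to 10.48 in WT MPP, and 7.24 to 7.40 against 8.50 to 9.64 in WT GMP. In GMP 5 of the 6 fell when WT GMP library 1 and T2F3 GMP library 2 were left out. The part of erythroid RNA in the Pklr difference was not tested.

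Counts for this list and those below stand beside 20.7% of all tested genes higher and 19.6% lower in MPP, and 9.25% higher and 6.04% lower in GMP. Under alternatives the number of called genes moved too, from 4889 in MPP and 1855 in GMP. Without WT GMP library 1 and T2F3 GMP library 2, 6695 were called in MPP and 2175 in GMP. With array weights these were 7795 and 4103, and with the ribosomal covariate 4319 were called in GMP. Of 30 tested genes that MYC is known to activate, 6 rose and 2 fell in MPP, with a median of 0.05. Median centring gave 5 higher and 4 lower with a median of -0.003, and quantile normalization 3 higher and 4 lower, so the balance of directions rests on the scaling. Npm1, a nucleolar chaperone, rose by 0.56 (limma adjusted p = 0.00826), though by 0.10 and without passing under quantile normalization, and Odc1, of polyamine synthesis, rose by 0.41 (limma adjusted p = 0.00956, lost without T2F3 MPP library 3). Pfas, an enzyme of purine synthesis, fell (-0.48, limma adjusted p = 0.00847). In GMP, 6 of the 30 fell and none rose, with a median of -0.24. Srm, which makes spermidine, was at -0.65 (limma adjusted p = 0.0155), the mitochondrial chaperonin Hspd1 at -0.58 (limma adjusted p = 0.0194) and the RNA polymerase I subunit Polr1b at -0.45 (limma adjusted p = 0.0168). All 3 calls were lost without T2F3 GMP library 2. Without that library and WT GMP library 1, 6 of 30 fell in GMP with a median of -0.18, and in MPP 9 rose and 6 fell.

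Of 8 tested genes that MYC is known to repress, 4 rose in MPP and 4 in GMP, and none fell, with medians of 0.35 and 0.42. Klf6, a zinc finger transcription factor, rose by 1.26 ± 0.18 in MPP (limma adjusted p = 8e-05) and 0.95 ± 0.17 in GMP (limma adjusted p = 0.00125). Cdkn2c, an inhibitor of the cyclin D kinases, rose by 0.45 in MPP (limma adjusted p = 0.00122) and 0.44 in GMP (limma adjusted p = 0.00168). The kinase inhibitor Cdkn1a rose by 0.71 in MPP (limma adjusted p = 0.00112). Ndrg1 rose by 0.53 in GMP (limma adjusted p = 0.0175), a call lost without T2F3 GMP library 1 or 3. Without WT GMP library 1 and T2F3 GMP library 2 the counts were 5 higher and 1 lower in MPP and 5 higher in GMP, and array weights gave 5 higher and 2 lower in MPP. The ribosomal covariate gave 5 higher and 1 lower in each population. In GMP 1 of the 8 was lower at an unadjusted p under 0.05 (limma). With 40.3% of all genes called in MPP, the number of calls, 4 of 8, is near the background there. All 4 were upward, beside 20.7% of all genes called higher, and this direction was not tested. Of the 20 genes of S phase and G2/M, 1 rose and 1 fell in MPP and none passed in GMP (limma), where 1 had an unadjusted p under 0.05. The MPP count was 4 higher and 4 lower without the 2 libraries or with the ribosomal covariate, and 5 higher and 2 lower with array weights; in GMP the covariate gave 4 lower and array weights 2 higher and 1 lower.

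Partner complexes were read the same way. Of 16 MYC coactivators and partners, 7 fell in MPP and 2 in GMP, and none rose, with medians of -0.19 and -0.22 beside -0.02 over all genes in each. With 40.3% and 15.3% of all genes called, these numbers of calls are near the background. All were downward, beside 19.6% and 6.04% of all genes called lower, and this direction was not tested. The GMP count was 6 with array weights and 9 with the ribosomal covariate. Bptf, a chromatin remodeller subunit, was at -0.67 (limma adjusted p = 8.66e-04), the acetyltransferase Crebbp at -0.58 (limma adjusted p = 0.00302) and Trrap, the scaffold through which MYC recruits acetyltransferases, at -0.57 (limma adjusted p = 0.0038) in MPP. In GMP the acetyltransferase Kat2a was at -0.50 (limma adjusted p = 0.00779) and the helicase Ruvbl1 at -0.44 (limma adjusted p = 0.0129, lost without T2F3 GMP library 2).

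Of 12 SIN3-HDAC corepressor genes, 4 rose and 1 fell in MPP, and none passed in GMP (limma). In GMP 1 was higher and 1 lower at an unadjusted p under 0.05, array weights called 2 higher, and the ribosomal covariate called 2 higher and 1 lower. Sap30 rose by 0.61 (limma adjusted p = 5.648e-04), the deacetylase Hdac1 by 0.37 (limma adjusted p = 0.00438) and Brms1 by 0.28 (limma adjusted p = 0.00941, lost without T2F3 MPP library 3). Of 13 genes of MYC protein turnover, 3 fell in MPP, the ubiquitin ligases Huwe1 (-0.45, limma adjusted p = 0.0235) and Fbxw7 (-0.30, limma adjusted p = 0.0437) and the phosphatase subunit Ppp2r5a (-0.33, limma adjusted p = 0.0338), and 1 fell in GMP. These counts moved with the setting: under median centring or quantile normalization 6 fell in MPP, without WT GMP library 1 and T2F3 GMP library 2 it was 6 with 1 higher in MPP and none in GMP, all 3 MPP calls were lost without T2F3 MPP library 2 or 3 or WT MPP library 3, and the GMP call, Stub1 (-0.24, limma adjusted p = 0.0448), passed in 9 of 27 alternatives. Of the 9 partners of MGA in its Polycomb complex, Rybp (-0.38, limma adjusted p = 0.0422) and L3mbtl2 (-0.40, limma adjusted p = 0.0445) fell in MPP and L3mbtl2 fell in GMP (-0.45, limma adjusted p = 0.0454). Rybp and L3mbtl2 each passed in MPP in 16 of 27 alternatives, and any single T2F3 MPP library left out ended both calls. Without WT GMP library 1 and T2F3 GMP library 2, 2 of the 9 partners fell and 1 rose in MPP. In GMP, L3mbtl2 passed in 8 of 27, and neither median centring nor quantile normalization kept the call. Of 12 germline genes that this complex is known to silence, 10 had means under 4 and were not tested, and neither of the 2 tested passed between genotypes (limma), with 0 at an unadjusted p under 0.05.

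**Figure D4:**
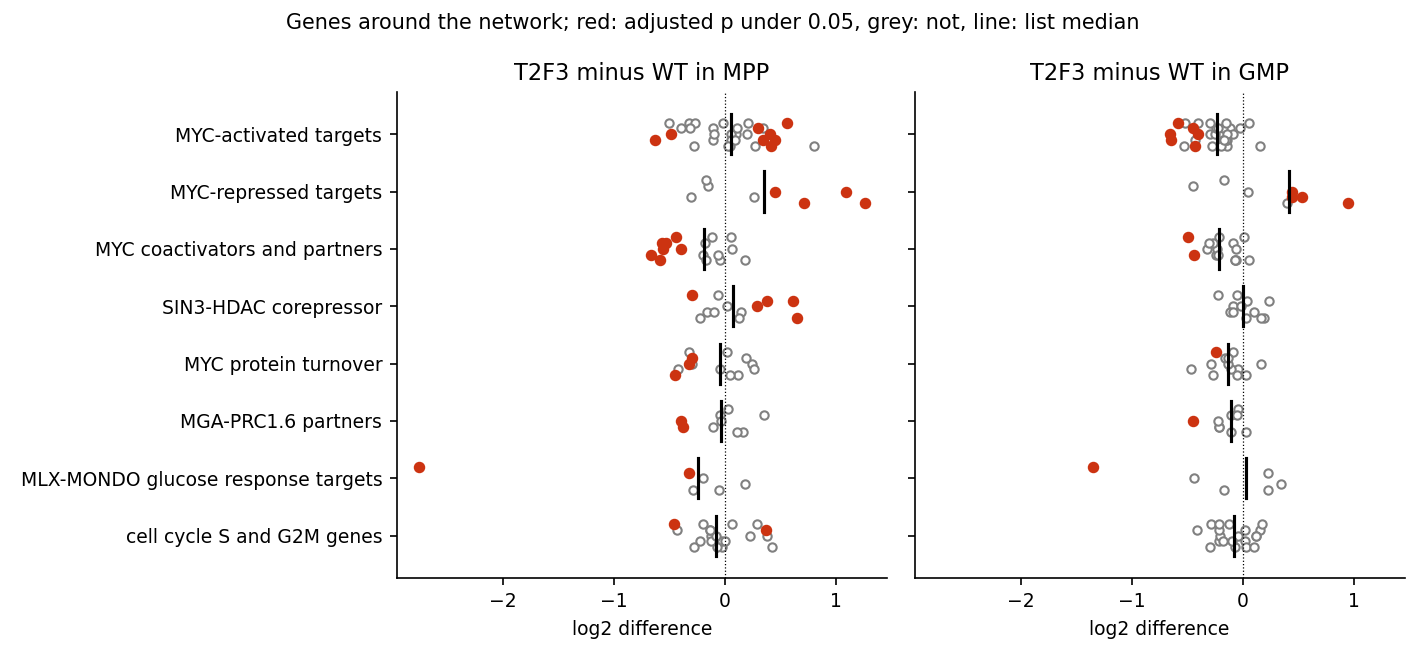
T2F3 minus WT difference (horizontal axis, log2) of each tested gene of 8 lists around the network (vertical axis) in MPP and in GMP; red points passed at an adjusted p under 0.05, grey points did not, and black lines are list medians. The MYC-repressed list has its median at 0.35 and 0.42, the coactivators at -0.19 and -0.22, and the MYC-activated list at 0.05 and -0.24.

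In the step from MPP to GMP, 12 of the 30 MYC-activated genes rose and 1 fell in WT, beside 25.4% higher and 23.2% lower of all genes, and 1 rose and 3 fell in T2F3, beside 10.5% and 11.7%. For the difference between the steps none of the 30 passed (limma), and 11 had an unadjusted p under 0.05, all lower. That result moved with the setting. Without WT GMP library 1 and T2F3 GMP library 2, 6 of the 30 were lower, with array weights 7 and with the ribosomal covariate 13. Among all 12133 tested genes, 1204, 1494 and 2428 were called for the difference in these settings. Under quantile normalization 1 was lower for the difference. Under quantile normalization 7 rose and 3 fell in WT, where the median turned from 0.24 to -0.06, and 1 rose and 9 fell in T2F3. Without WT GMP library 1 and T2F3 GMP library 2, 16 rose and 1 fell in WT and 1 rose and 4 fell in T2F3. In that setting 7037 of the 12133 tested genes passed in the WT step and 3838 in the T2F3 step. With all libraries these were 5899 and 2690. Tert, the telomerase subunit, fell in both, at -1.73 in WT (limma adjusted p = 3.87e-07) and -1.36 in T2F3 (limma adjusted p = 9.728e-05), and Tfrc, the transferrin receptor, rose by 0.59 in WT (limma adjusted p = 3.737e-04). Of the cell cycle genes, 12 of 20 rose in WT and 8 in T2F3 (19 and 12 without those 2 libraries, 8 and 4 under quantile normalization), with Rrm2, a subunit of ribonucleotide reductase, higher by 0.83 and 0.72 (limma adjusted p = 7.622e-06 and 4.82e-04). Of 73 ribosomal protein genes, 58 rose in T2F3 MPP, with a median of 0.72. In GMP, whose groups hold the 2 libraries that stand apart in these genes, none rose and 1 fell, with a median of 0.27, and for the difference of the effects none of the 73 passed (limma), with 6 at an unadjusted p under 0.05, all lower, and a median of -0.45. Txnip, the classic target of MLX pairs, was lower in GMP, at -1.0 in WT (limma adjusted p = 3.778e-06) and -0.48 in T2F3 (limma adjusted p = 0.0233), while Mlx itself was higher. The T2F3 call was lost without any single T2F3 MPP library and without T2F3 GMP library 2 or 3. Of the 6 glucose response genes of MLX, 4 fell and 0 rose in WT, and 1 fell and 0 rose in T2F3, beside 23.2% and 11.7% lower of all genes. Without WT GMP library 1 and T2F3 GMP library 2, 1 rose in each step and the numbers that fell were unchanged.

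The genes with the pattern most like Myc over the 15 libraries were Faap100, Gpatch4, Nat10, Lpar2 and Ncoa5, with Pearson r of 0.926, 0.92, 0.917, 0.917 and 0.912. Nat10, an RNA acetyltransferase of the nucleolus, averaged 10.05 in WT MPP, 9.59 in T2F3 MPP, 9.98 in WT GMP and 9.54 in T2F3 GMP. Those most like Mycn were Gimap7, Lck, Gucy1a1, Sla2 and Mylk, with r of 0.989, 0.983, 0.978, 0.97 and 0.968. Lck, a kinase of T-cell receptor signalling, averaged 7.39, 8.62, 5.63 and 5.55 in the same order of groups. Of 5 T and NK cell markers, 3 had means under 4 over the libraries, and neither of the 2 tested, Cd8a and Nkg7, passed between genotypes (limma; 0 in MPP and 1 in GMP at an unadjusted p under 0.05); the part of such cells in the Mycn difference was not tested. These r describe likeness over libraries that share group differences and carry no test.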

How the data were processed

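The deposited table gave regularized log2 values per Entrez gene for 15 RNA libraries, made by the authors; STAR, Bowtie, HOMER, DESeq2 and mm9 stand in the submitters' processing notes without a version or role. Per the labels' protocols, libraries were made with a kit that keeps strand. How counts were made and scaled is not given in the sources used here, and the depth is unknown. Identifiers were matched to symbols for 24345 of 24424 genes, and 5135 genes were at 0 in all libraries. Genes with a mean under 4 were left out. limma 3.58.1 (R 4.3.3) fitted 1 mean per group to all 15 libraries, with trend and robust moderation, for 5 contrasts, with Benjamini-Hochberg adjustment over 12133 genes and a threshold of 0.05. The script was tested on simulated data. No pair of libraries held identical values; within groups the smallest correlation was 0.973. The 10 members and all gene lists were chosen with earlier results of these data known. Named genes were the members and, per list, up to 3 called genes with the smallest adjusted p between genotypes and up to 2 between populations, plus the 5 genes most like Myc and Mycn by Pearson r, without predicted genes. Marker genes are given as values beside results, and the single markers named were picked after their values were seen. The alternatives changed the filter, the scaling, the moderation, the weights, the libraries, the replicate number or a ribosomal protein covariate. Promoter windows came from RefSeq, on another build than the table's, and were searched with Python 3.11.15. The other 41 of 56 samples of the series, DNA libraries and other cells, were not used here.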

Additional observations from a re-analysis of the deposited data

Results flagged for a closer look

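Mxd1 in WT GMP library 4 was 9.301, far above the other 4 libraries of its group, with a gap to the nearest of 0.743 of the group's range. Mxi1 in the same library was 9.653, with a gap of 0.901 of the range. Mlx in WT GMP library 1 was 9.947, with a gap of 0.722 of the range. That library also had the highest median deviation of ribosomal protein genes from the group mean, at 0.854. The part of that difference in the Mlx value was not tested. Chance alone sets a sample of a group apart by this measure in about 1 of 20 groups. The T2F3 groups, of 3 libraries each, were too small to be screened in this way. The genotype effect on Mycn differed between populations, with a difference of -2.327 (limma adjusted p = 4.432e-05): all 3 T2F3 MPP libraries were above all 4 WT MPP libraries, while the GMP genotypes overlapped.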

How the results depend on the processing

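Of the 17 member calls, 12 passed in every alternative run and none changed sign; there were 27 alternatives for each call and 26 for the difference of the effects. These 12 include Mycl in both populations, Myc and Mycn in MPP, and the difference between the effects on Mycn. Of the 458 values of called results under alternatives, 13 no longer passed; their causes were not tested. With array weights, the called genes were 7795 in MPP, 4103 in GMP, 1494 for the difference of the effects and 4389 in the T2F3 step. With the ribosomal protein covariate they were 4319 in GMP, 2428 for the difference and 4216 in the T2F3 step. Fitting the groups of the comparison alone gave 1180 in GMP. For the difference, 436 genes were called without a filter, 140 with a mean of at least 6, and 1204 without WT GMP 1 and T2F3 GMP 2. Members called in MPP were 7 under quantile normalization, array weights, the ribosomal covariate and without those 2 libraries, and 9 with the MPP groups alone. Of the 12133 tested genes, 7795 were called in MPP with array weights and 6695 without the 2 libraries, against 4889 in the main fit. The totals for the other settings are not given here, so their member counts are not to be read as a result about the members. Members called in GMP were 1 with the groups alone. The ribosomal covariate gave 2 members for the difference, Mxd1 being added.

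With the replicate number as a block, 2732 genes were called in MPP, 1 member passed in GMP, Max in MPP was 0.004514, Myc in GMP was -0.397 (limma adjusted p = 0.0699, 0.00259 to 0.162 over alternatives) and Mnt in MPP was -0.367 (limma adjusted p = 0.0601, 7.352e-04 to 0.0601 over alternatives); Mycl in the T2F3 step passed (limma adjusted p = 0.0125, 0.00755 to 0.294 over alternatives). Same-numbered MPP and GMP libraries of 1 genotype correlated in their deviations from group means at 0.055 to 0.464, all positive but not all over 0.1. Other same-numbered pairs ran from -0.326 to 0.517, the highest being WT GMP 3 with T2F3 GMP 3. The main fit did not pair libraries by number, and these values do not settle whether the numbers pair them. Treating genotype and number as 1 animal left the counts of members higher and lower unchanged in every contrast. Under the block, MYC-activated genes numbered 2 higher and 1 lower in MPP and 2 lower in GMP, and none passed in either population for the turnover, MGA partner and cell cycle lists.

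Leaving out 1 library at a time gave 2859 to 5989 called genes in MPP, 1174 to 3759 in GMP and 79 to 586 for the difference, with 1 to 3 members in GMP and 1 to 2 for the difference. The lowest counts came without T2F3 MPP 2, T2F3 GMP 2 and T2F3 MPP 3, and the highest without WT GMP 1, WT GMP 1 and T2F3 MPP 1.

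Values that changed sign were all of members that had not passed. In MPP, Max was 0.01107 with array weights and -0.08861 to 0.02425 with 1 library left out. In GMP, Mxd4 was 0.02446 without the 2 libraries and -0.1698 to 0.06758 with 1 left out, and Mlx ran from -0.02977 to 0.2465. For the difference of the effects, Max was 0.01841 with median centring, 0.02167 with quantile normalization and -0.09848 to 0.01658 with 1 library left out. Mxi1 was 0.01072, 0.04838 and -0.1447 to 0.03274 in the same order, and Mycl was -0.07454 with quantile normalization, -0.09415 with array weights and -0.04306 to 0.4065. In the T2F3 step, Mxd4 was 0.004467 with quantile normalization, 0.0694 with array weights, 0.133 without the 2 libraries and -0.1043 to 0.133 with 1 left out; Myc was 0.06764 without the 2 libraries and -0.1467 to 0.08552, and Mnt ran from -0.01952 to 0.1335. For the difference of the effects, 60.95% of called genes were higher as deposited and 74.5% with median centring.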
